A study of Drosophila melanogaster with 2 samples.

Results

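The scaffold 3RHet holds pericentromeric heterochromatin that was assigned to the right arm of chromosome 3 but not joined to the 3R sequence in the dm3 build of the *Drosophila melanogaster* genome. All H3T3ph enriched regions listed on this scaffold are described here, without any choice on their values, and they number 888 of the 6387 regions in the deposited list. The data came from 1 immunoprecipitated (IP) library, made with a rabbit antibody against histone H3 phosphorylated at threonine 3 (H3T3ph), and 1 input library, both from untreated S2 cells, a cultured embryonic line of wild-type origin. The IP library held 21013056 reads and the input library 23747069 reads after the authors' filters. With 1 library of each kind there is no replicate, so that no p-value is given and every interval (95%) covers the error of counting reads or regions only, and not the duplication of DNA molecules during 18 cycles of PCR. The libraries do not separate mitotic from interphase cells.

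H3T3ph is placed by the kinase haspin, which in mitosis acts mainly at the inner centromere. Pericentromeric heterochromatin is the compact, mostly silent chromatin on both sides of a centromere, rich in transposon remnants and satellite repeats and bound by HP1a through methylated histone H3 lysine 9. Because the authors kept only reads with a single placement in dm3, the scaffold is seen through its unique stretches, between which repeats leave sequence where no region can be listed. The positions below are those of dm3, counted from 1. No dm3 sequence or gene annotation was used here, so that positions are given without gene names, and 3RHet was given the length 2497327 bp, where its last region stops.

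H3T3ph regions were packed densely on 3RHet, and more of them were narrow than on 3LHet or at the centromeric end of 3R. The density was 355.6 regions per Mb on 3RHet, against 262.4 on 3LHet, the corresponding scaffold of the left arm with 668 regions, and 30.5 in the 4 Mb of 3R next to the centromere (the centromeric end of 3R), which held 122 regions. The density on 3RHet was thus 1.36 times that on 3LHet (interval from 1.22 to 1.501) and 11.7 times that at the centromeric end of 3R (interval from 9.64 to 14.2). These intervals treat regions as independent, which close neighbors are not. The limit of 4 Mb on 3R was set with the low number of regions near its start known, so that ratio depends on the choice. Against the first 2 Mb of 3R it was 20.9. The other heterochromatic scaffolds were less dense as well, with 239.9 regions per Mb on 2RHet, 261.3 on 2LHet and 193.7 on XHet. The covered length gave another order. Regions covered 17.9% of 3RHet, 20.8% of 3LHet and 4.09% of the centromeric end of 3R. Counted by number, 3RHet was ahead of 3LHet. Counted by covered sequence it was behind, at 0.860 times the share of 3LHet.

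The difference between these orders lies in the width of the regions. The median width was 264.5 bp on 3RHet (quartiles of 127.75 and 494 bp), 426.5 bp on 3LHet (quartiles of 194 and 973 bp) and 1050.5 bp at the centromeric end of 3R (quartiles of 438.25 and 1916.5 bp). On 3RHet 366 regions were at most 200 bp wide, which is 41.2% (Wilson interval from 38.0 to 44.5%), where the whole list has 33.3%. The share was 25.9% on 3LHet (interval from 22.7 to 29.4%) and 16.4% at the centromeric end of 3R (interval from 10.9 to 24.0%). The narrow regions were not particular to 3RHet, since the share was 39.6% on 2LHet (38 regions, median width 261 bp), 50% on XHet (18 regions, median width 201 bp) and 26.7% on 2RHet (209 regions, median width 388 bp). Few regions on 3RHet were of extreme narrowness, as 35 were at most 50 bp wide and 4 were at most 10 bp. Those of at most 50 bp made up 3.94% on 3RHet and 3.14% on 3LHet. Their share was 9.02% at the centromeric end of 3R and 8.66% in the whole list. On 3RHet the narrowest were 2 regions of 1 bp, at 425310 and 915295, each with 10 IP reads and no input read.

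The excess over 3LHet was found in a limited span of widths. In classes of width that include their upper limit, regions 50 to 200 bp wide numbered 331 on 3RHet and 152 on 3LHet, a density 2.22 times as high (interval from 1.83 to 2.71). In regions 200 to 400 bp wide the factor was 1.61 (226 and 143 regions, interval from 1.30 to 2.001). Between 400 and 800 bp the densities could not be told apart, with a factor of 1.06 (157 and 151 regions, interval from 0.842 to 1.33). Regions wider than 1600 bp were fewer on 3RHet, 60 against 100 on 3LHet, with a factor of 0.612 (interval from 0.437 to 0.851). Against the centromeric end of 3R the density was higher in every class of width, by 58.9 times for regions 50 to 200 bp wide (interval from 30.7 to 130, with 9 regions on 3R) and by 2.67 times for regions wider than 1600 bp (interval from 1.74 to 4.15).

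**Figure D1:**
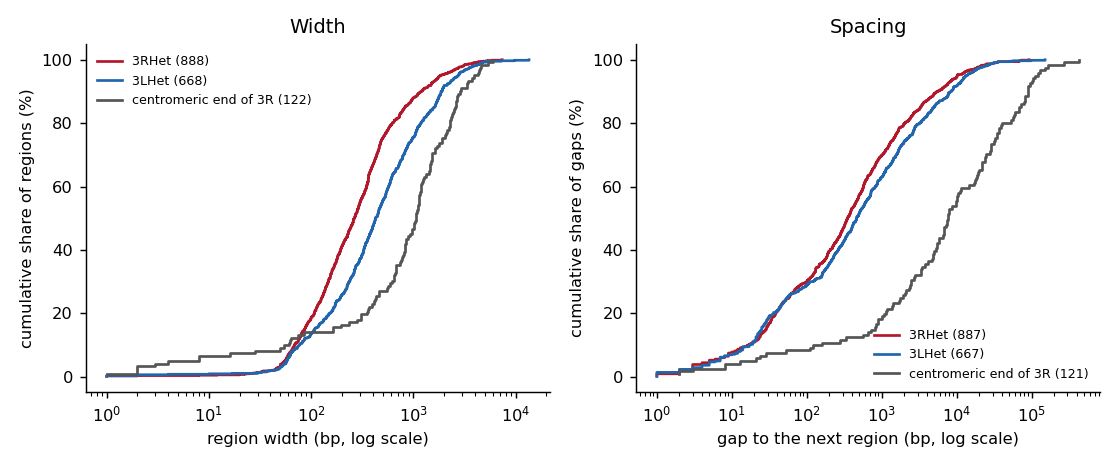
Cumulative shares of region widths (left, bp, log scale) and of the gaps between neighboring regions (right, bp, log scale) on 3RHet, 3LHet and the centromeric end of 3R, with the number of regions or gaps in the legend. The curve of 3RHet lies left of that of 3LHet for widths above 100 bp, with medians of 264.5 and 426.5 bp, while the gaps of both scaffolds run close together up to 100 bp and are mostly far shorter than those of 3R.

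Neighboring regions on 3RHet were close to each other. The median gap was 349 bp on 3RHet, against 462 bp on 3LHet and 7612 bp at the centromeric end of 3R. Of the 887 gaps on 3RHet, 211 were at most 50 bp, no longer than a sequenced read, which is 23.8% (interval from 21.1 to 26.7%). The share on 3LHet was the same within its interval, 23.8% (from 20.8 to 27.2%), and on 3R it was 7.44% (from 3.96 to 13.5%). In 8 cases only 1 bp separated neighbors. The first such pair runs from 38867 to 39158 (83 IP and 35 input reads) and from 39160 to 39313 (47 IP and 22 input reads), and the IP to input ratios of the pair, 2.68 and 2.41, have intervals that overlap widely. Long stretches without any region were present too. The 49 gaps longer than 10 kb made up 46.7% of the sequence between the first and the last region on 3RHet, close to the 48.7% in 55 such gaps on 3LHet. The longest gap, 92.3 kb from 438571 to 530823, lies between a region with 333 IP and 204 input reads and a region with 90 IP and 47 input reads.

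When regions with gaps of at most 500 bp were joined into runs, the 888 regions of 3RHet formed 379 runs, of which 198 were single regions. The 690 other regions, 77.7% of all, lay in runs of at least 2. Runs of 5 or more held 344 regions or 38.7% on 3RHet, 201 regions or 30.1% on 3LHet, and none at the centromeric end of 3R, where the longest run had 3 regions. After joining, the density was 151.8 runs per Mb on 3RHet and 127.3 on 3LHet, a ratio of 1.19 (interval from 1.03 to 1.39), where that of single regions was 1.36. Runs held narrow regions beside wide ones. The longest run, 13.5 kb from 411780 to 425310, had 12 regions between 1 and 7395 bp wide that covered 89.7% of it, with 5100 IP and 2610 input reads and a ratio of 2.21 (interval from 2.11 to 2.32). It includes the widest region of the scaffold, from 417564 to 424958, which also had the most IP reads, 3264, beside 1794 input reads (ratio 2.06, interval from 1.94 to 2.18). The run with the most regions, 14, spans 10.5 kb from 7948 to 18416 and had a ratio of 2.05 (interval from 1.94 to 2.18). The second longest run, 10.7 kb from 1685416 to 1696145 with 6 regions, had 3123 IP and 2582 input reads and a ratio of 1.37 (interval from 1.30 to 1.44).

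Regions and their ratios were not spread evenly along the scaffold. In bins of 100 kb the number of regions on 3RHet ranged from 3 to 69 with a median of 38, and on 3LHet from 6 to 43 with a median of 24.5. The bins with the most regions, 69 each, were those from 200 to 300 kb and from 600 to 700 kb. Regions covered 39.7% of the bin from 600 to 700 kb, the largest share on the scaffold. The bin with the fewest regions, 1700 to 1800 kb, held regions from 1698420 to 1703799, from 1770365 to 1771325 and from 1784695 to 1785776. The bin from 300 to 400 kb, within the dense portion, had 8 regions only, which covered 7.29% of it.

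A change was seen near 1.6 Mb, a border that was set after the values had been seen and is therefore described without a test. The scaffold up to 1.6 Mb held 730 regions, or 456.2 per Mb, and beyond it lay 158 regions, or 176.1 per Mb. The median width was 238 bp up to the border and 441.5 bp beyond it. Regions of at most 200 bp made up 44.7% up to the border (interval from 41.1 to 48.3%) and 25.3% beyond it (interval from 19.2 to 32.6%). The pooled IP to input ratio, that is the summed IP reads over the summed input reads with each scaled to its library total, was 2.13 up to the border, from 115220 IP and 61197 input reads (interval from 2.11 to 2.149). Beyond it the ratio was 1.56 (interval from 1.54 to 1.58), from 42047 IP and 30484 input reads. The median width beyond the border was thus near the 426.5 bp of 3LHet, while the density was below the 262.4 regions per Mb of 3LHet.

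Because the border was placed where the ratio of the bins changed, the separation of their ratios across it is fixed by that choice and is given as a description only. The 16 bins up to 1.6 Mb had ratios between 1.98 and 2.35, and the 9 bins beyond it had ratios between 1.23 and 1.80. Within the first portion the number of regions per bin varied from 8 to 69 while the ratio stayed in this narrow span. In the sparse bin from 300 to 400 kb it was 2.09 (interval from 1.97 to 2.23), and in the dense bin from 200 to 300 kb it was 2.18 (interval from 2.11 to 2.26). Beyond the border the ratio was 1.42 from 1600 to 1700 kb and 1.33 from 1700 to 1800 kb. It was highest, 1.80 (interval from 1.73 to 1.88), from 2100 to 2200 kb, and lowest, 1.23 (interval from 1.19 to 1.28), in the last bin.

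**Figure D2:**
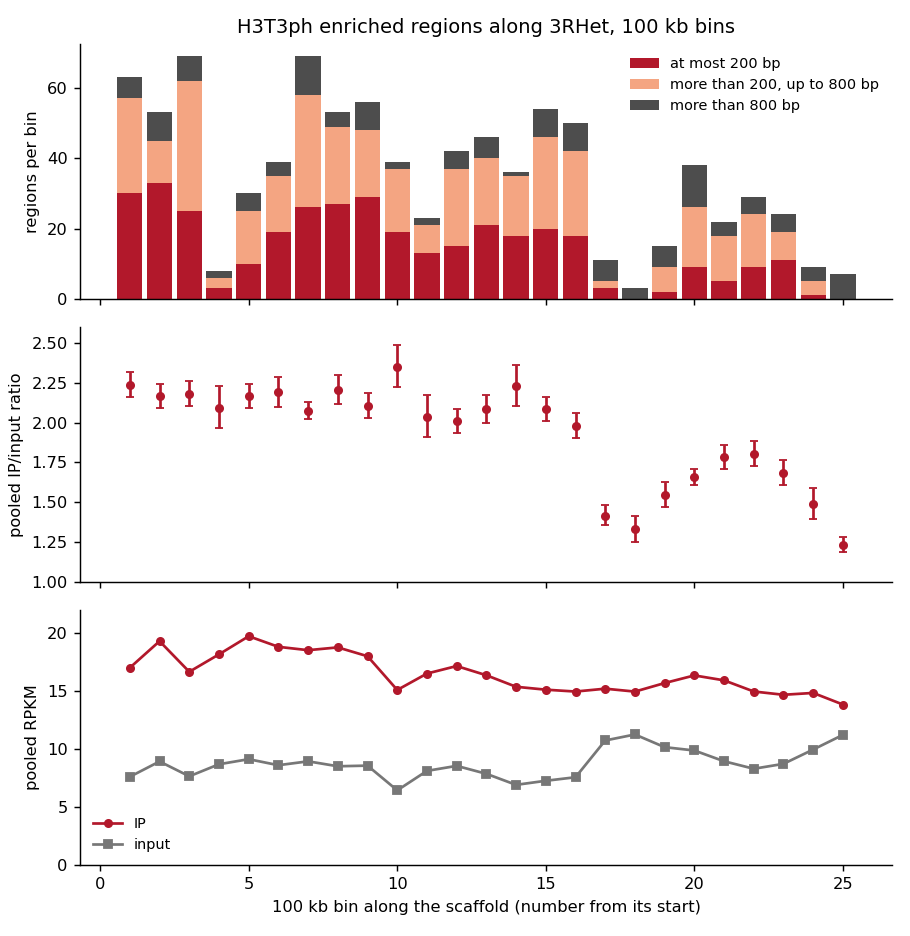
The 25 bins of 100 kb along 3RHet, the last one incomplete, with the number of regions by width (top), the pooled IP to input ratio with its 95% exact interval on the reads (middle) and the pooled RPKM of the IP and of the input over the covered sequence (bottom). Bins 1 to 16 have ratios from 1.98 to 2.35, bins 17 to 25 have ratios from 1.23 to 1.80, and the input RPKM is highest in bins 18 and 25, at 11.2 in each.

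The regions nearest to the border varied in ratio with their width. The last region before it, from 1598246 to 1599015, had 220 IP and 166 input reads and a ratio of 1.50. After a gap of 31.2 kb the next region, from 1630217 to 1630950, had 229 IP and 181 input reads and a ratio of 1.43. These neighbors, 770 and 734 bp wide, thus had similar ratios. The 7 other regions closest before the border had ratios between 1.54 and 2.44. Of the 7 that follow beyond it, those of 29 and 65 bp had ratios of 7.91 and 5.93 on 2 and 4 input reads, and the others had ratios between 1.31 and 2.02. Among these regions, those wider than 800 bp had ratios of 1.71 and 1.72 up to the border and of 1.50, 1.39, 1.35 and 1.31 beyond it. The direction is that of the portions, but the border was chosen from these ratios, so this is a description only.

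A region needs a smaller ratio to be listed the more reads it has, so that ratios were compared at equal width. Among regions wider than 800 bp, the 87 regions up to 1.6 Mb had ratios from 1.59 to 2.56 with a median of 2.04, and the 52 regions beyond it had ratios from 1.17 to 2.32 with a median of 1.50. A ratio of at least 2 was found in 53 of the 87 regions up to the border and in 1 of the 52 beyond it. On 3LHet it was found in 7 of 201 regions wider than 800 bp, and at the centromeric end of 3R in 0 of 75. The share over the whole list was not computed for regions wider than 800 bp. Above 1600 bp a ratio of at least 2 was found in 26 of 38 regions up to the border and 0 of 22 beyond it, where the whole list has 5.39%. Bins reduced to regions wider than 800 bp gave ratios from 1.76 to 2.25 up to the border, against 1.23 to 1.73 beyond it. The pooled ratio up to the border was 1.3998 times that beyond it for regions wider than 1600 bp. The factor was 1.35 for regions 800 to 1600 bp wide, 1.16 for regions 400 to 800 bp wide and 1.10 for regions 200 to 400 bp wide. It was 1.06 for regions 50 to 200 bp wide, with an interval that includes 1 (from 0.954 to 1.18). Above 50 bp the factor was thus larger in the wider classes. Regions of at most 50 bp gave 1.77, with 4 such regions beyond the border and an interval that includes 1 (from 0.715 to 3.99). These factors rest on a border chosen from the ratios and are a description.

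Over the portions as wholes, both libraries differed. In regions wider than 1600 bp the IP had 18.6 RPKM (read density, per kb of region and scaled by library total) up to the border and 15.2 RPKM beyond it, 1.22 times as much. The input had 9.14 RPKM up to the border and 10.5 RPKM beyond it, 0.874 times as much. Along the bins the input ranged from 6.42 to 9.11 RPKM up to the border and from 8.29 to 11.2 RPKM beyond it. The IP ranged from 14.95 to 19.7 RPKM up to the border and from 13.8 to 16.3 RPKM beyond it. Between the bins on either side of the border the input differed far more than the IP. In regions wider than 800 bp the input had 7.42 RPKM from 1500 to 1600 kb (8 regions) and 10.96 RPKM from 1600 to 1700 kb (6 regions), where the IP had 14.7 RPKM from 1500 to 1600 kb and 15.2 RPKM from 1600 to 1700 kb. The highest IP of the first portion lay farther from the border, between 16.7 and 19.7 RPKM over all regions in each of the 9 bins up to 900 kb. From 900 to 1600 kb the IP over all regions varied between 14.95 and 17.1 RPKM, the latter from 1100 to 1200 kb. In regions wider than 800 bp it was 18.5 RPKM from 1100 to 1200 kb (5 regions).

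**Figure D3:**
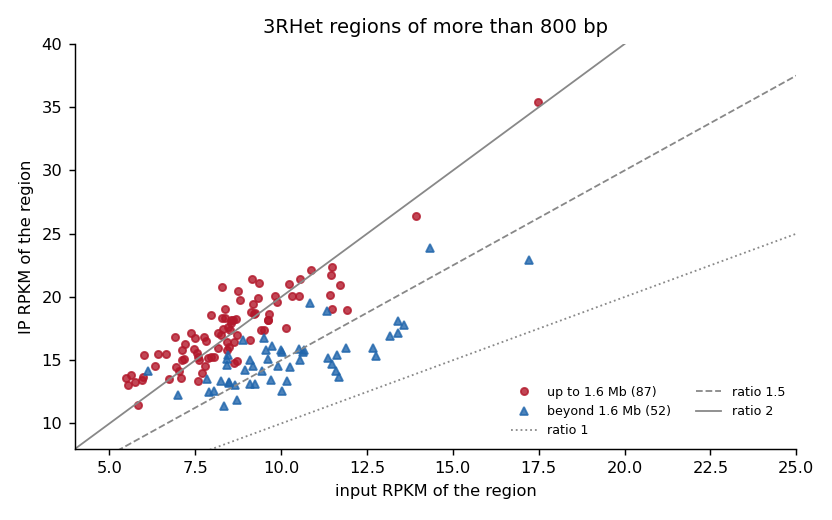
IP RPKM against input RPKM of each 3RHet region wider than 800 bp, 87 up to 1.6 Mb (circles) and 52 beyond it (triangles), with lines at IP to input ratios of 1, 1.5 and 2. The regions up to 1.6 Mb lie around the line of 2 and those beyond it around the line of 1.5, with medians of 2.04 and 1.50.

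The last bin had the lowest ratio on 3RHet. Its 7 regions were all wider than 800 bp and lie in 3 groups, from 2438918 to 2446327, from 2476833 to 2483684 and from 2493807 to 2497327. Their ratios were between 1.17 and 1.37. The region that ends the scaffold, from 2493807 to 2497327, had 1013 IP and 977 input reads and the lowest ratio of all regions of at least 400 bp, 1.17 (interval from 1.07 to 1.28). The next lowest belonged to 2 other regions of this bin, from 2441803 to 2444776 with 960 IP and 902 input reads (ratio 1.20) and from 2481135 to 2483684 with 760 IP and 703 input reads (ratio 1.22). The region that begins the scaffold, from 13 to 4089, had 1593 IP and 771 input reads and a ratio of 2.33 (interval from 2.14 to 2.55). In the last bin, the 4 regions wider than 1600 bp had ratios between 1.17 and 1.25. The 36 such regions at the centromeric end of 3R had 1.14 to 1.405, and the 100 such regions of 3LHet had 1.18 to 2.02. Ratios near 1.2 were thus not particular to 3R. The 3 regions of the last bin that were 800 to 1600 bp wide had ratios between 1.28 and 1.37. The 39 such regions of 3R had 1.29 to 1.76, and the 101 of 3LHet had 1.30 to 2.16. Which end of the scaffold faces the 3R arm is not given in the sources used here.

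Compared with 3LHet at equal width, 3RHet as a whole had the higher ratio in every class above 50 bp. For regions 50 to 200 bp wide the pooled ratio was 2.97 on 3RHet and 2.58 on 3LHet, a factor of 1.15 (interval from 1.09 to 1.21). For regions 200 to 400 bp wide it was 2.12 on 3RHet and 1.96 on 3LHet, a factor of 1.08 (interval from 1.04 to 1.12). The factor was 1.11 between 400 and 800 bp (interval from 1.08 to 1.14), 1.10 between 800 and 1600 bp (interval from 1.07 to 1.12) and 1.13 above 1600 bp (interval from 1.11 to 1.14). In regions of at most 50 bp the difference was not detectable, with 494 IP and 45 input reads on 3RHet, 276 IP and 19 input reads on 3LHet, and a factor of 0.756 whose interval runs from 0.409 to 1.35. In classes of IP reads in place of width, an addition made once the values were known, the factor was between 1.07 and 1.12 for more than 20 reads. At 21 to 40 reads its interval, from 0.954 to 1.19, included 1. At 10 to 20 reads, with 54 regions on 3RHet and 31 on 3LHet, the factor was 1.0005 (interval from 0.705 to 1.41).

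The higher ratio on 3RHet went with fewer input reads and not with more IP reads. In regions 200 to 400 bp wide the input had 7.50 RPKM on 3RHet and 8.47 RPKM on 3LHet, 0.885 times as much (interval from 0.861 to 0.910). The IP was slightly lower as well, 15.9 RPKM on 3RHet and 16.6 RPKM on 3LHet, 0.957 times as much (interval from 0.938 to 0.977). In regions wider than 1600 bp the input had 9.65 RPKM on 3RHet and 11.4 RPKM on 3LHet, 0.845 times as much (interval from 0.834 to 0.855), and the IP 17.3 and 18.2 RPKM, 0.951 times as much (interval from 0.941 to 0.960). Within 3RHet the IP hardly moved with width, staying between 15.9 and 17.3 RPKM in the classes above 50 bp. The input increased with width through all of these classes, with 5.76 RPKM in regions 50 to 200 bp wide and 9.65 RPKM in regions wider than 1600 bp. This increase was not particular to 3RHet. Between the same classes the input went from 7.02 to 11.4 RPKM on 3LHet and from 6.32 to 11.3 RPKM in the whole list. Since regions with few reads are listed with a high ratio only, the increase cannot be told apart from what the list admits. The copy number and the mappable share of the regions were not measured, and their part in the input depth was not tested.

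Wide regions of the first 1.6 Mb and of the rest of 3RHet stood on different sides of 3LHet. Above 1600 bp the factor over 3LHet was 1.28 up to the border and 0.913 beyond it, and in this class the IP was 1.02 times that of 3LHet up to the border and 0.836 times beyond it. Between 800 and 1600 bp the factor was 1.24 up to the border and 0.916 beyond it. In narrower regions this contrast was weaker. At 400 to 800 bp the factor was 1.14 up to the border and 0.982 beyond it (interval from 0.939 to 1.03). At 200 to 400 bp it was 1.10 up to the border (interval from 1.06 to 1.14) and 0.996 beyond it (interval from 0.935 to 1.06). At 50 to 200 bp it was 1.16 up to the border and 1.09 beyond it (interval from 0.979 to 1.22). These values rest on the border chosen from the ratios and are a description.

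Against the centromeric end of 3R the comparison took another form. For regions wider than 1600 bp the pooled ratio was 1.79 on 3RHet and 1.24 on 3R, a factor of 1.45 (interval from 1.42 to 1.48). In this class the IP had 17.3 RPKM on 3RHet and 12.6 RPKM on 3R (1.38 times as much, interval from 1.36 to 1.397), while the input was 0.951 times as high (interval from 0.936 to 0.966). The factor was 1.29 between 800 and 1600 bp (interval from 1.25 to 1.33) and 1.23 between 400 and 800 bp (interval from 1.16 to 1.30). For regions 200 to 400 bp wide it was 1.12 and could not be told from 1 (interval from 0.983 to 1.27), as 3R had 8 regions in this class. At 50 to 200 bp, with 9 regions on 3R, it was 0.900 and could not be told from 1 either (interval from 0.699 to 1.15). The IP was higher on 3RHet in each of these classes, by 1.26 to 1.38 times. The input was higher as well in all of them but the widest, by 1.07 times between 800 and 1600 bp (interval from 1.04 to 1.09), 1.08 times between 400 and 800 bp, 1.18 times between 200 and 400 bp and 1.403 times between 50 and 200 bp (interval from 1.14 to 1.75). Beyond 1.6 Mb the factor over 3R in regions wider than 1600 bp was 1.17.

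**Figure D4:**
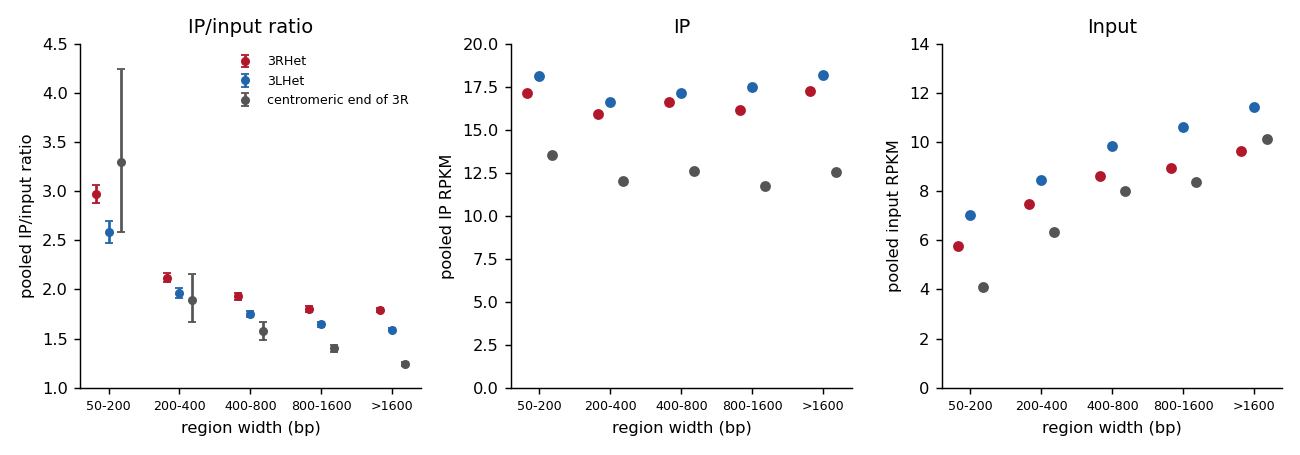
Pooled IP to input ratio with its 95% exact interval (left), pooled IP RPKM (middle) and pooled input RPKM (right) by class of region width (bp) on 3RHet, 3LHet and the centromeric end of 3R. Above 200 bp the ratio is highest on 3RHet, and 3RHet lies below 3LHet in both IP and input RPKM and above 3R in IP RPKM.

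Among the 880 regions of 3RHet with an input read, the median ratio of single regions was 2.30 (quartiles of 1.92 and 3.03). On 3LHet the median was 1.85 (quartiles of 1.66 and 2.29) and at the centromeric end of 3R it was 1.405 (quartiles of 1.30 and 1.66). A ratio of at least 2 was reached by 610 regions of 3RHet, 69.3% (interval from 66.2 to 72.3%), where the whole list has 45.2%, 3LHet 38.8% (interval from 35.1 to 42.5%) and the centromeric end of 3R 13.0% (interval from 8.07 to 20.4%). The share was 62.5% on XHet (20 of 32 regions, interval from 45.3 to 77.1%), 44.5% on 2RHet and 44.2% on 2LHet. Part of the share on 3RHet comes with narrow regions, since few reads are listed with a high ratio only. Among regions wider than 1600 bp it was 26 of 60 on 3RHet, 3 of 100 on 3LHet and 0 of 36 at the centromeric end of 3R, with 5.39% in the whole list. Of the 51 such regions in the genome 26 were thus on 3RHet, all of them up to 1.6 Mb, and 15 on the unplaced sequence U.

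The highest ratios among regions of at least 400 bp belonged to those from 21652 to 22144 with 134 IP and 42 input reads (3.61, interval from 2.53 to 5.23) and from 416142 to 416638 with 171 IP and 57 input reads (3.39, interval from 2.50 to 4.66). Next came 1271293 to 1271753 with 142 IP and 53 input reads (3.03, interval from 2.19 to 4.23). All 3 lie up to 1.6 Mb and their input was low, between 3.59 and 4.84 RPKM, where the IP was between 12.9 and 16.4 RPKM. Without any input read there were 8 regions on 3RHet, all at most 40 bp wide and up to 1.6 Mb, the widest from 118995 to 119034 with 14 IP reads. For these no ratio is given. Such regions were 8 of 888 on 3RHet and 10 of 668 on 3LHet. They were 7 of 122 at the centromeric end of 3R and 264 of 6387 in the whole list. The median region of 3RHet rested on 88 IP and 44 input reads, against 151.5 IP and 94.5 input reads on 3LHet, so that single ratios on 3RHet were less precise. The authors' p-value was listed as 0 for 82 of 888 regions on 3RHet and 75 of 668 on 3LHet. In the whole list it was 0 for 487 of 6387. Of the 82 on 3RHet, the 3 nearest to the start of the scaffold run from 13 to 4089, from 8667 to 10835 (776 IP and 425 input reads, ratio 2.06) and from 12259 to 13516 (518 IP and 295 input reads, ratio 1.98).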

How the data were processed

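A ChIP-seq experiment on S2 cells gave 1 H3T3ph IP and 1 input library. With Bowtie 0.12.5 the authors placed 50 nt reads on dm3 (up to 2 mismatches, single placement), removed over-amplified reads (false discovery rate 0.01), corrected the strand shift and listed enriched regions with htSeqTools 1.4.0 in R 2.15 (at least 10 reads, adjusted p-value under 0.05). The deposited columns carry no names. They hold the raw read counts of IP and input, the RPKM values the authors computed from them, and the authors' Benjamini-Hochberg p-value, used here only to take the regions at or below the median p-value and to pick regions to name. Values of the IP were taken to come first in each pair, because the first RPKM exceeded the second in all 888 regions of 3RHet. Reads and RPKM gave the library totals, 21013056 and 23747069 reads.

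Computations were made in Python 3.11.15 (scipy 1.17.1, pandas 2.3.3, numpy 2.4.6) and plots in matplotlib 3.10.9. Pooled ratios and density ratios have 95% exact binomial intervals, factors between ratios the exact interval of Fisher's method, and shares Wilson intervals. The code was tested on simulated regions. Regions named are the first, last, widest, narrowest and deepest, the extremes of ratio at 400 bp or more, the lowest p-values, the widest without input, the pairs at the longest and smallest gap, the longest runs and the extreme bins, while those at the border and in the last bin were added after their values were seen. The members and comparisons were chosen with earlier results of these data known. Alternatives kept only better or wider regions, joined neighbors, counted covered bp, or changed bins and borders. No sequence is shown, as no dm3 genome was used here.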

Additional observations from a re-analysis of the deposited data

How the results depend on the processing

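The excess in density over 3LHet depended on what was counted. It was 1.36 in the full list and became 0.878 when regions under the list's median width of 376 bp were dropped, 0.860 in covered bp per Mb and 1.19 with regions within 500 bp joined. For the portion of 3RHet up to 1.6 Mb it was 1.74, and beyond 1.6 Mb it was 0.671. Over the centromeric end of 3R the density ratio of 11.7 became 25.1 with regions at or below the list's median p-value, 5.33 without those narrow regions, 5.67 with regions joined, 4.38 in covered bp per Mb and 20.9 against the first 2 Mb of 3R. It was 14.96 up to 1.6 Mb and 5.77 beyond it. The share of regions of at most 200 bp, 41.2%, became 24.6% in that better part of the list and 28.2% with regions joined. The pooled ratio of 1.94 on 3RHet became 2.30 as the median of single regions, 2.13 up to 1.6 Mb and 1.56 beyond it. In regions 200 to 400 bp wide, the factor of 1.08 over 3LHet became 0.996 beyond 1.6 Mb, and the factor of 1.12 over 3R became 0.976 in that better part of the list. The highest over the median number per bin, 1.82 for 100 kb, was 3.27 for 50 kb. The median gap of 349 bp became 617 bp in the better part, 1774.5 bp with regions joined and 1219 bp without those narrow regions. The input factor of 0.885 against 3LHet stayed within its interval under every alternative run. The settings that split 3RHet at 1.6 Mb were chosen after seeing the data, and apart from their own construction the causes were not tested.

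No paired analysis was possible because there is 1 library of each kind. With no replicate, none of the values shows how far another culture or immunoprecipitation would differ, and the list holds enriched regions only, so that sequence between regions was not measured. Regions of at most 50 bp rest on few input reads, and their ratios are set largely by what the list admits.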
